A study of Drosophila melanogaster with 5 samples.

Results

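Embryo-only peaks beside a midline peak are stretches of open chromatin that were called in whole Drosophila melanogaster embryos, that overlapped no peak of sorted midline cells, and that had a midline peak edge within 1000 bp. They were selected on peak positions alone, the overlap and the gap between 2 peak lists on the dm3 genome build, each with the 10000 highest peaks that the authors called on pooled replicates. Of the 10000 embryo peaks, 4342 (43.4%) overlapped no midline peak by even 1 bp, and 1017 of these lay within 1000 bp of one. The 1017 peaks are 23.4% of the embryo-only peaks (95% interval 22.2 to 24.7%) and 10.2% of all embryo peaks. The other 3325 embryo-only peaks, whose nearest midline peak lay farther away, serve as their comparison.

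The embryo list came from 2 FAIRE-seq libraries of whole OregonR embryos, 6 to 8 hours after egg laying. The midline list came from 2 libraries of cells sorted for GFP from embryos of the same age that carried sim3.7-Gal4 and UAS-mCD8::GFP, so that the sim driver decided which cells were collected. A further library was genomic DNA of adult virgin females of the strain y;cn,bw,sp. Whole embryos were fixed for 10 minutes before they were homogenized, whereas midline cells were homogenized and sorted before 5 minutes of fixation, so the lists differ in strain and handling as well as in cells. Whole embryos also hold the midline cells themselves. The lists carry no values per replicate and no read counts, so the depth is unknown and no difference below could be set against the spread between replicates. Intervals of shares and medians are exact 95% intervals for counting error that treat peaks as independent, and no comparison has a test. An interval of a difference between 2 medians runs between the opposite ends of the 2 median intervals, so its coverage is not exact. The labelled cells were not checked against marker genes, because no gene annotation of dm3 was used.

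FAIRE-seq recovers DNA that is free of nucleosomes after crosslinking, and its peaks mark promoters, enhancers and other regulatory elements. Developmental genes of the fly often carry several such elements close together, and neighbouring elements of a gene can be open in different tissues. The midline cells are the neuronal and glial precursors along the ventral midline of the central nervous system, which depend on the transcription factor single-minded, encoded by sim. An embryo-only peak beside a midline peak is a place where an open element listed for the whole embryo adjoins, without touching, one listed for the midline cells.

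The highest of these peaks lay at positions 8454168 to 8454622 of 3R, with a score of 970 and rank 133 in the embryo list. The score is the authors' own whole number for a peak, which serves here to order and describe peaks of the same list because its scale is not stated, and rank 1 is the highest. Peaks of equal score share a rank, the best of the places they fill, so many peaks have the same rank. The nearest midline peak, at 8453400 to 8453817, lay 350 bp to its left, had rank 168 in the midline list and was itself overlapped by an embryo peak of rank 32. A strong element open in both lists therefore stood directly next to a strong element listed for the whole embryo. The midline peak on the other side was 17090 bp away.

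The second lay at 6012157 to 6012807 of 2R (score 798, rank 354), 405 bp from a shared midline peak of rank 2084. Here the embryo-only peak scored above the embryo peak over that neighbour, which had a score of 198. The third, at 5930275 to 5930763 of 2R (score 723, rank 470), was 998 bp from a shared midline peak of rank 9271. Another embryo-only peak, of rank 1474, stood in the space between them. The fourth, at 9552063 to 9552682 of X (score 697, rank 528), had a weak shared neighbour of rank 7924 at 265 bp. Its own score was far above the 73 of the embryo peak over that neighbour.

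The remaining 6 of the 10 highest scored between 546 and 611. Those at 18546303 to 18546622 of 3R, 8293130 to 8293392 of X and 5059514 to 5059831 of 3R had midline-only neighbours, at 250, 274 and 880 bp. These 3 neighbours ranked 8025, 9271 and 9752, low in the midline list. The other 3, at 11240979 to 11241291 of 3L, 3393858 to 3394623 of 3L and 9027728 to 9028592 of X, had shared neighbours at 168, 499 and 372 bp, which ranked 2997, 1709 and 1475. In all, 7 of the 10 highest adjoined a shared midline peak, close to the 65.1% of all 1017 peaks that did. Of all midline peaks 60.9% were shared.

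**Figure D1:**
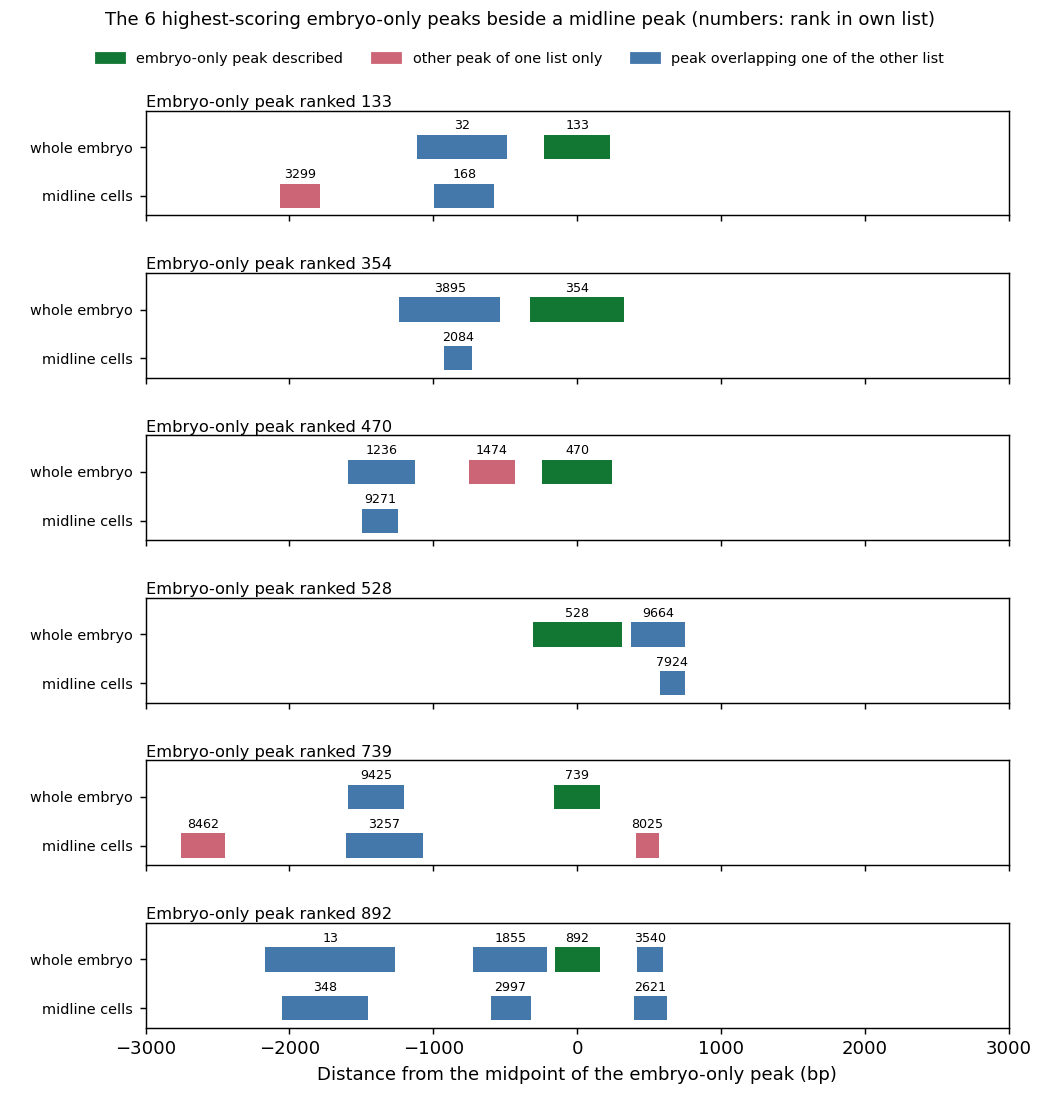
Peaks of the whole-embryo list (upper track) and the midline list (lower track) around the 6 highest-scoring embryo-only peaks beside a midline peak, by distance in bp from the midpoint of that peak. Bars are peaks to scale and the numbers above them are ranks in their own list. In 5 of the 6 places the nearest midline peak (ranks 168, 2084, 9271, 7924 and 2997) lies under another embryo peak, and around the peak of rank 739 the nearest midline peak (rank 8025) has none above it.

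For comparison, the 3 highest embryo-only peaks with no midline peak within 1000 bp lay at 15547155 to 15547699 of 3L, 17606877 to 17607443 of X and 14039974 to 14040645 of 2L. They scored 850, 837 and 750, and their nearest midline peaks were 11342, 1677 and 2908 bp away. All 3 of those midline peaks were shared, where the nearest midline peak was shared for 57.8% of all 3325 such peaks.

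The gap between an embryo-only peak and its midline neighbour is part of the rule, so its values are a description. Its median was 398 bp (interquartile range 222 to 637 bp), and the distance between the midpoints of the 2 peaks had a median of 706.5 bp. A gap of 500 bp or less, the lower end of the 500 bp to 2 kb to which the labels say chromatin was sheared, was found for 640 of the 1017 peaks (62.9%, 59.9 to 65.9%). The neighbour lay to the left of the peak in 51.2% (48.1 to 54.3%).

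Peaks that almost touched were few. Of gaps up to 49 bp there were 21, of 50 to 99 bp 36, of 100 to 149 bp 70, and of 150 to 199 bp 87, the highest of the 50 bp classes up to 3000 bp. On the other side of the limit, 16 embryo peaks overlapped a midline peak by 1 to 50 bp and 21 by 51 to 100 bp, whereas 998 overlapped by 201 to 250 bp. The limit between overlapping and adjoining peaks therefore fell where the lists held few peaks. The smallest overlaps were 2 bp, for the peak at 6075356 to 6075500 of 2L, and 3 bp, for that at 21224711 to 21225148 of 3R.

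**Figure D2:**
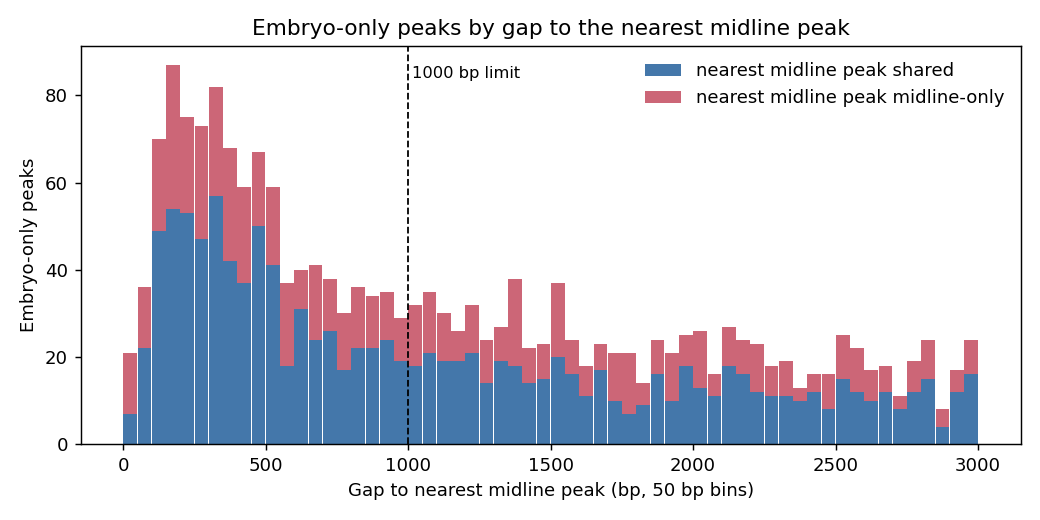
Number of embryo-only peaks (vertical axis) by gap to the nearest midline peak in 50 bp classes (horizontal axis, bp), split by whether that midline peak is shared or midline-only. The count is highest at 150 to 199 bp, with 87 peaks, and passes the 1000 bp limit (dashed line) with 29 peaks in the class before it and 32 in the class after it.

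The limit of 1000 bp, in contrast, fell on a slope without a step. There were 164 embryo-only peaks with gaps of 751 to 1000 bp, or 65.6 for each 100 bp of gap, and 290 with gaps of 1001 to 1500 bp, or 58.0 for each 100 bp. The last peaks inside the limit were that at 5930275 to 5930763 of 2R, described above, and that at 17261420 to 17261662 of 3L (score 204), both with a gap of 998 bp. The first outside were at 21225716 to 21225999 of 3R (score 163, gap 1002 bp) and at 738127 to 738307 of 3R (score 86, gap 1006 bp).

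The smallest gap was 2 bp. The peak at 5700586 to 5700830 of 3R (score 298, rank 2493) had a midline-only peak of rank 9271 on its right at that distance, and a shared midline peak of rank 1490 on its left at 73 bp. It therefore filled the space between 2 midline peaks without touching either. The next gaps were 3 bp, for the peak at 21168253 to 21168471 of 2L (score 113, with a shared neighbour of rank 4338), and 5 bp, for that at 1857692 to 1857968 of X (score 71, with a midline-only neighbour of rank 8462).

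A midline peak stood within 1000 bp on both sides of 148 of the 1017 peaks (14.6%, 12.4 to 16.9%). Both flanking midline peaks were shared in 69 of these places (46.6%). In 66 (44.6%) 1 was shared and 1 midline-only, and in 13 (8.78%) both were midline-only. Of single midline peaks in the whole list, 60.9% were shared and 39.1% midline-only. A share of pairs is not comparable with these, and no background for flanking pairs was computed. How far the counts follow from the make-up of the midline list was therefore not tested. The 3 highest-scoring peaks flanked on both sides are among the 10 above. At 11240979 to 11241291 of 3L the flanking midline peaks were 168 and 236 bp away, and both were shared. At 9027728 to 9028592 of X they were 372 and 599 bp away, both shared, with ranks 1475 and 683. At 18546303 to 18546622 of 3R a midline-only peak lay at 250 bp and a shared peak of rank 3257 at 914 bp. Peaks flanked on both sides had a median score of 109 (102 to 119), against 112 (108 to 117) for those with a midline peak on 1 side.

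Embryo-only peaks beside a midline peak were somewhat wider than the others at nearly the same score. Their median width was 263 bp (254 to 271 bp), against 218 bp (214 to 222 bp) for embryo-only peaks farther away, a difference of 45 bp. Among the 5000 highest embryo peaks the difference was 26.5 bp, with an interval of -1 to 45 bp that includes 0. The gap is measured between edges and overlap is excluded, so the width of a peak enters the rule. With the distance taken between midpoints, the difference over the whole embryo list was 40 bp (25 to 50 bp). Shared embryo peaks were wider than either group of embryo-only peaks, with a median of 422 bp. The median score was 112 (108 to 115) beside a midline peak and 107 (105 to 109) farther away, so that the intervals overlapped. The median rank was 6672 beside a midline peak and 6939 farther away. Both medians were higher beside a midline peak in 5 of 5 chromosome arms, for width by amounts that ran from 255 against 223 bp on 2L to 277 against 214 bp on 3R. The score medians were closest on 3L, at 108 against 106.5, and farthest apart on X, at 118.5 against 107.

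The difference in width was also present among peaks of like score. When the embryo list was cut into 10 classes of 1000 ranks, the median width was larger beside a midline peak in 10 of 10 classes, by 6 to 49 bp. In ranks 8001 to 9000, for example, the medians were 237 bp beside a midline peak and 188 bp farther away. The widths did not change abruptly at the limit. The median was 252.5 bp at gaps of 751 to 1000 bp, 254.5 bp at 1001 to 1500 bp, 239.5 bp at 3001 to 5000 bp and 195 bp over 10000 bp. The median score stayed between 106.5 and 115.5 in every gap class up to 10000 bp, and was 101 beyond.

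**Figure D3:**
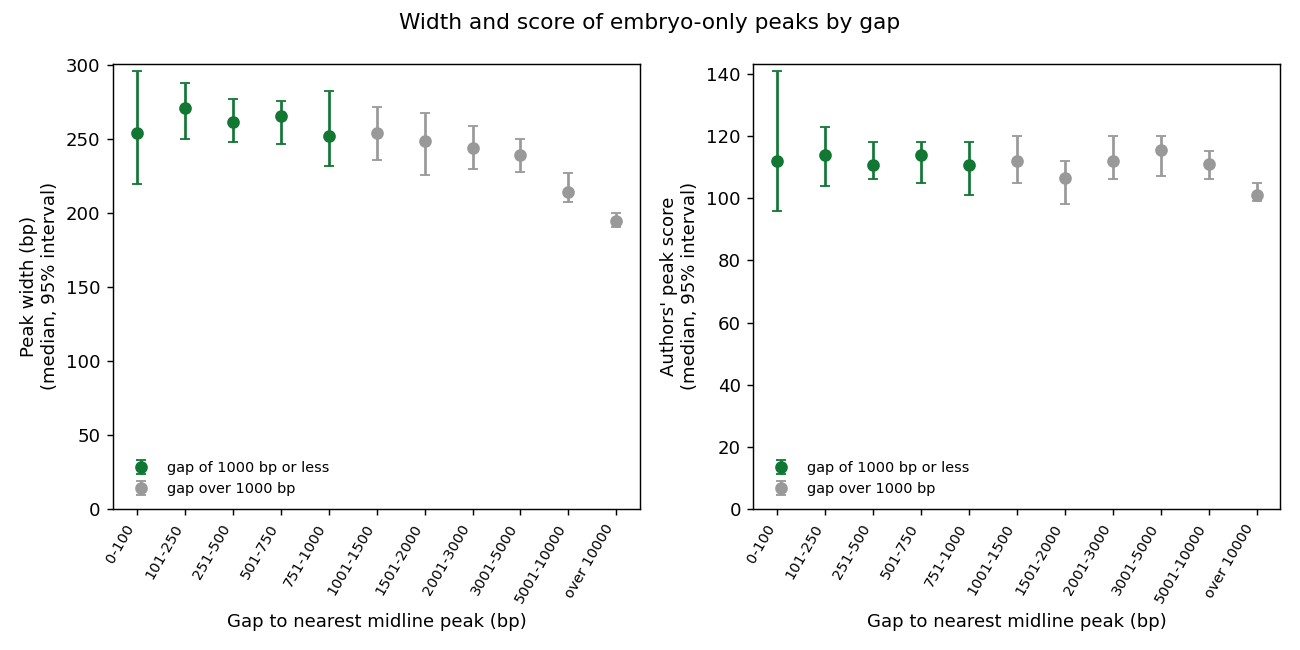
Median width (left, bp) and median authors' score (right) of embryo-only peaks by gap to the nearest midline peak, with exact 95% intervals. Width is between 252.5 and 271 bp in the 5 classes up to 1000 bp and 195 bp over 10000 bp, while the score medians differ little between classes.

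The widest peak ran from 9807249 to 9808603 of 3R, 1355 bp, with a score of 251. Its midline neighbour, 376 bp away, ranked 873 and was shared. The second, 898 bp wide at 9454051 to 9454948 of 2R, had a score of 82, low for its list, beside a shared midline peak of rank 247 at 286 bp. The third was 881 bp wide at 16005543 to 16006423 of 3L (score 485), with a shared neighbour of rank 2521 at 454 bp. In all 3 places the midline list held a narrower peak next to a broad stretch that the embryo list alone contained. The choice of the widest peaks favours this contrast, since the median width of all midline peaks was 275 bp.

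Few of the strong embryo peaks were embryo-only. Of the 28 embryo-only peaks among the 1000 highest embryo peaks, 11 lay beside a midline peak (39.3%, 21.5 to 59.4%). Of the 757 among ranks 9001 to 10000, 175 did (23.1%, 20.2 to 26.3%), and these intervals overlap. In ranks 1001 to 2000 the share was 33.7% (24.2 to 44.3%) and in ranks 7001 to 8000 it was 20.1% (17.0 to 23.4%). In all, 285 of the 1017 peaks (28.0%, 25.3 to 30.9%) were in the upper 5000 ranks, against 755 of the 3325 farther away (22.7%, 21.3 to 24.2%).

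The midline neighbour was shared for 662 of the 1017 peaks (65.1%, 62.1 to 68.0%) and midline-only for 355 (34.9%, 32.0 to 37.9%). In the whole midline list 60.9% of peaks were shared and 39.1% midline-only. The nearest midline peak of embryo-only peaks farther away was shared in 57.8% (56.1 to 59.5%). At gaps of 100 bp or less it was 50.9% of 57 peaks, and in the other gap classes up to 1000 bp it was between 63.4 and 67.2%. No interval was computed for this share by gap class, and the first class is small, so no difference between the classes is claimed. On the X, 75.5% of 188 neighbours were shared (68.7 to 81.5%), where 67.7% of all midline peaks were. Without the X the share was 62.7% (59.3 to 66.0%), against 59.6% of all autosomal midline peaks, which lies inside the interval. The intervals of the 4 autosomal arms taken singly also held the share of all midline peaks of the arm, so the interval excluded the share of all midline peaks only with the X included.

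The 1017 peaks had 961 different midline neighbours, of which 626 were shared and 335 midline-only. For 908 midline peaks there was 1 adjoining embryo-only peak, for 50 there were 2 and for 3 there were 3. Of the 50 with 2, 30 had them on opposite sides. Counts of neighbours below are therefore not wholly independent.

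Shared neighbours had ranks and widths close to those of shared midline peaks in general. Their median rank in the midline list was 3482 (3168 to 3823) and their median width 300.5 bp (288 to 318 bp), against 3373 (3282 to 3479) and 312 bp (308 to 317 bp) for all shared midline peaks. Midline-only neighbours had a median rank of 6972 (6670 to 7216) and a width of 222 bp (208 to 234 bp), against 7019 (7019 to 7216) and 221 bp (217 to 224 bp) for all midline-only peaks. The intervals overlapped in each of these comparisons. Taken over both classes, their median rank was 4801 (4487 to 5131), and that of all midline peaks, 4988, lay inside this interval. It was 5493 (5408 to 5623) for the midline peaks nearest to embryo-only peaks farther away. The best-ranked shared neighbour stood at rank 8 of the midline list, 365 bp from an embryo-only peak at 18825010 to 18825317 of X with a score of 125. The next ranked 15 and 28, beside embryo-only peaks at 4302834 to 4303068 of 3R (score 92, gap 126 bp) and at 1421043 to 1421261 of 2L (score 102, gap 222 bp).

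A shared neighbour brings an embryo peak with it, so the 662 places with one show 2 embryo peaks side by side of which 1 has a midline counterpart. The embryo peak over the neighbour was usually the larger of them. The peak without a counterpart scored lower in 518 places (78.2%, 74.9 to 81.3%), the same in 6 and higher in 138 (20.8%, 17.8 to 24.1%). The embryo peaks over the neighbours had a median score of 267, a median rank of 2860 and a median width of 428 bp, against 243, 3152 and 422 bp for all shared embryo peaks. The same comparison gave 79.4% (77.5 to 81.1%) for embryo-only peaks farther away, so a share of similar size was found where the nearest shared element was distant.

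The embryo peak over the neighbour reached nearer to the embryo-only peak than the midline peak did in 493 of the 662 places (74.5%, 71.0 to 77.8%). The gap between the 2 embryo peaks had a median of 348.5 bp, and that between the embryo-only peak and its shared midline neighbour 399 bp. Embryo peaks were wider than midline peaks in general. A further embryo peak stood wholly between an embryo-only peak and its midline neighbour in 23 of the 1017 places (2.26%, 1.44 to 3.37%).

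The 355 peaks with a midline-only neighbour show the other arrangement, in which each list holds a peak that the other lacks. In 306 of them (86.2%, 82.2 to 89.6%) the embryo-only peak was also the nearest embryo peak of that midline peak. Much of this is set by the rule, which places the embryo-only peak within 1000 bp of that midline peak. The nearest other embryo peak lay at a median of 2082 bp from these 355 peaks. Both peaks ranked below 5000 in 174 of the 306 pairs (56.9%, 51.1 to 62.5%). Of single peaks, 76.0% of all embryo-only and 76.6% of all midline-only peaks ranked below 5000 in their lists. A share in which both peaks of a pair must qualify is not comparable with these, and no background for pairs was computed. Both were in the upper 5000 of their lists in 12 pairs (3.92%, 2.04 to 6.75%). In 52 pairs only the embryo peak was in the upper 5000, and in 68 only the midline peak. The embryo-only peaks with midline-only neighbours had a median score of 105 (100 to 112), against 115 (111 to 119) for those with shared neighbours, and the median gap was 393 bp with midline-only and 399 bp with shared neighbours.

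The best-ranked midline-only neighbours lay on 2R. That at 2465550 to 2466079 ranked 525 and stood 381 bp from an embryo-only peak at 2466461 to 2466746 with a score of 123. That at 19477533 to 19477900 ranked 538 and had an embryo-only peak on either side, at 19476543 to 19476767 (score 106, gap 765 bp) and at 19478287 to 19478616 (score 86, gap 386 bp). In these places the midline peak was strong for its list and the embryo-only peaks were weak for theirs. Midline-only peaks within 1000 bp of an embryo peak numbered 1100, with a median gap of 407.5 bp. Their nearest embryo peak was embryo-only in 348 (31.6%), where 43.4% of all embryo peaks were embryo-only.

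**Figure D4:**
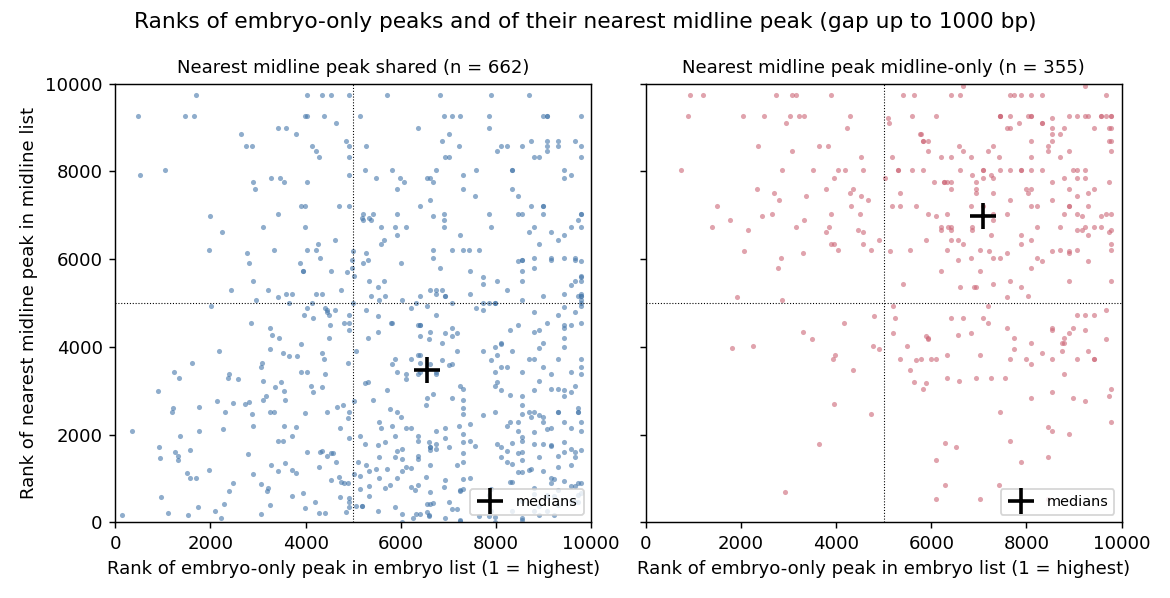
Rank of each embryo-only peak in the embryo list (horizontal axis) against the rank of its nearest midline peak in the midline list (vertical axis), for 662 shared (left) and 355 midline-only neighbours (right). Rank 1 is the highest, dotted lines mark rank 5000 and crosses mark the medians, at 6557 and 3482 for shared and at 7085 and 6972 for midline-only neighbours.

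Other embryo peaks were close as well. A further embryo peak lay within 1000 bp of 752 of the 1017 peaks (73.9%, 71.1 to 76.6%), against 510 of the 3325 farther away (15.3%, 14.1 to 16.6%). Most of this follows from the rule, since a shared neighbour has an embryo peak over it. Of the 662 peaks with a shared neighbour, 660 had some other embryo peak within that distance. The nearest embryo peak was a shared one for 620 of the 662. Among the 355 with midline-only neighbours, where no embryo peak overlaps the neighbour, the share was 25.9% (21.4 to 30.8%). In embryo-only peaks with gaps of 1001 to 1500 bp it was 26.6%, and with gaps over 10000 bp 9.96%. These 2 classes are not matched to the 355, since 61.7% and 57.3% of them had a shared nearest midline peak. Part of the next values is likewise set by the rule, which requires a midline peak within 1000 bp of the 1017 peaks and bars one from the others. Within 10 kb on either side there were at the median 4 midline peaks and 3 other embryo peaks, against 1 and 2 around embryo-only peaks farther away. Shared embryo peaks had the same medians of 4 and 3. A midline peak that they did not touch lay within 1000 bp of 46.5% of shared embryo peaks (45.2 to 47.8%), against the 23.4% of embryo-only peaks.

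By chromosome arm, the part of the embryo-only peaks that adjoined a midline peak was 26.4% on 2R (23.5 to 29.6%), 26.1% on 3R (23.4 to 28.9%), 22.7% on 3L (20.0 to 25.7%), 20.7% on X (18.1 to 23.5%) and 20.5% on 2L (17.6 to 23.5%). The arms 2R and 3R were above the other 3, with intervals that overlap in part. In counts, 3R held 263, 2R 221, 3L 192, X 188 and 2L 153 of the 1017 peaks. The median gap ran from 353.5 bp on X to 441 bp on 2R.

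A peak can be embryo-only because the midline list stops at 10000 peaks. Every peak name ends in a running number, which reaches 17552 for embryo peaks and 15189 for midline peaks, and a number missing between 2 neighbouring peaks was read as a call that the authors left out of the deposited list. Whether the numbers were given before the selection is not stated, and if they were, no midline call was left out between the 2 midline peaks flanking 410 of the 1017 peaks (40.3%, 37.3 to 43.4%), so that no midline call at all, weak or strong, overlapped them. For 367 peaks 1 call was left out and for 240 there were 2 or more, at unknown positions. Over all embryo-only peaks with flanks on both sides the share with none was 30.5%, and it was 27.5% (26.0 to 29.1%) for those farther away.

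The flanking midline peaks were closer together around the 1017 peaks, with a median of 6074 bp between them against 30954 bp around the others. At like distances the shares were close. With 5001 to 10000 bp between the flanks, no call was left out for 35.8% (28.7 to 43.4%) beside a midline peak and 40.7% (35.6 to 46.0%) farther away, and with 10001 to 20000 bp for 32.1% (25.4 to 39.3%) beside a midline peak and 27.3% (23.9 to 30.9%) farther away. Of the 10 highest-scoring peaks, 4 had no midline call left out, namely those at 8454168 of 3R, 11240979 and 3393858 of 3L and 5059514 of 3R. Peaks with none left out had a median score of 106 (101 to 112), against 117 (111 to 120) for those with at least 1. These intervals overlap, and the groups are not matched by the distance between the flanks. Its median was 3873.5 bp with none left out and 8587 bp with at least 1. Among the 306 pairs of an embryo-only and a midline-only peak that were nearest to each other, 48 (15.7%, 11.8 to 20.3%) had no call of the other list left out around either peak. By these numbers, no call of the other list overlapped either peak of those 48 pairs.

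**Figure D5:**
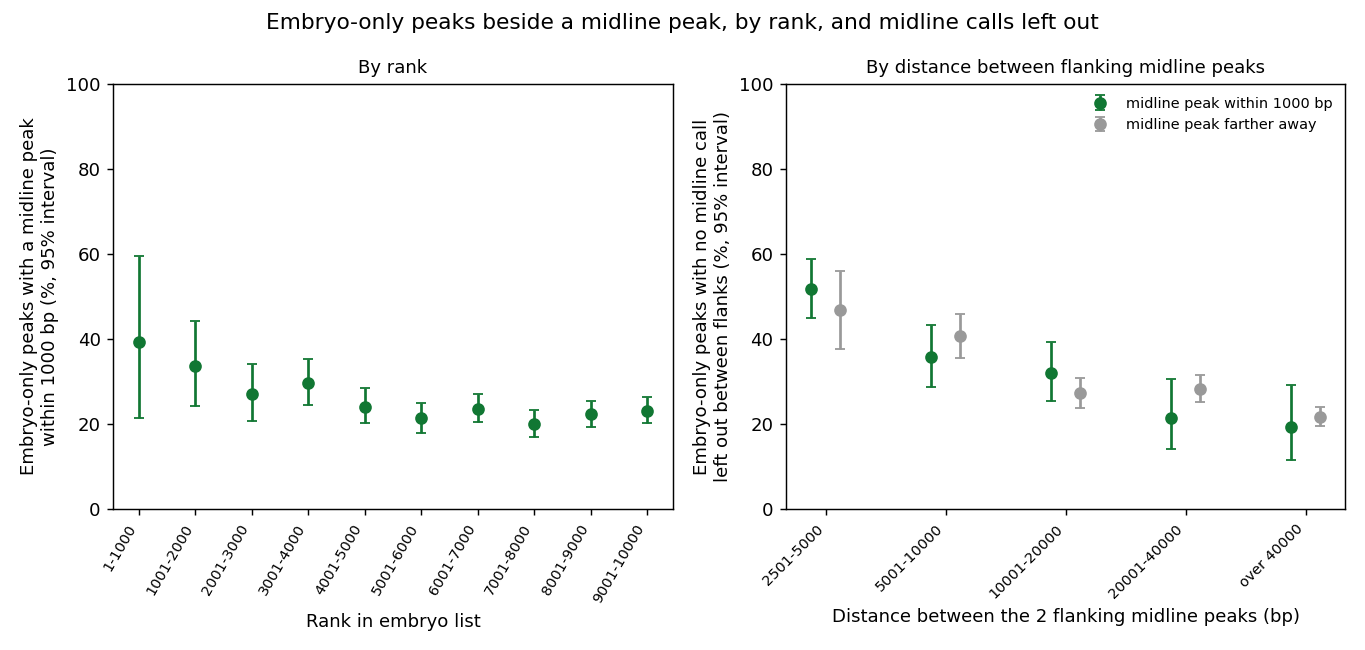
Left, share of embryo-only peaks that have a midline peak within 1000 bp, by rank in the embryo list (%). Right, share of embryo-only peaks with no midline call left out between their flanking midline peaks (%), by the distance between those flanks in bp, with a midline peak within 1000 bp or farther away. Bars are exact 95% intervals. The left share is 39.3% in the highest 1000 ranks and 23.1% in the lowest, and on the right the intervals overlap in each class drawn (the class up to 2500 bp, with 3 peaks farther away, is left out).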

How the data were processed

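FAIRE-seq of 2 whole-embryo and 2 midline libraries was analysed, and the genomic input had no values of its own here. Per the submitters' processing notes, the tools were MACS2, bedtools, SAMtools, Bowtie2 and CASAVA 1.8.2 and the build was dm3. The sources used here do not give their roles, their settings or how the input served. The file and peak names show that the authors pooled replicates and deposited the 10000 highest peaks of each group, with a score per peak whose scale is not stated.

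The gap is the number of bases between peak edges, and an equal gap on both sides went to the left peak. Peaks overlapping the other list by at least 1 bp were called shared. Shares have Clopper-Pearson intervals, and medians have binomial order-statistic intervals. Intervals of differences between medians join the opposite ends of the 2 median intervals and are not exact. The named regions are the 10 highest-scoring peaks, the 3 with the smallest gaps, the 3 widest, the 3 highest flanked on both sides, the 3 with the best-ranked neighbour of each class, 2 on each side of the limit and the 3 highest farther away. The members, lists and rules were chosen with earlier results of these data known. The alternatives changed the limit, list lengths, peak extent, distance and neighbour. The procedures were tested on simulated data. Coordinates are 1-based. Python 3.11.15, numpy 2.4.6, scipy 1.17.1, pandas 2.3.3 and matplotlib 3.10.9 were used. Genes and sequences under the peaks are not analysed here, since the gene table used for names is on another build.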

Additional observations from a re-analysis of the deposited data

How the results depend on the processing

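Of 54 values recomputed under the alternatives, 32 moved by less than their interval or, for counts, by less than 1.5 times, and 22 moved further. The differences in median width and score kept their sign wherever they were computed, but the interval of the score difference, 5 as reported (-1 to 10), excluded 0 only with the shortened midline list, and that of the width difference included 0 with the shortened embryo list. With a limit of 500 bp there were 640 peaks, with a median gap of 272 bp and 7.81% flanked on both sides, and with 2000 bp there were 1535, 642 bp and 21.5%, as the limit itself dictates. With the 5000 highest midline peaks the median gap was 425 bp, the score difference 15, the share of shared neighbours 85.1% (82.1% of all midline peaks in that setting), the share flanked on both sides 9.60% and the neighbours' median rank 2381. With the 5000 highest embryo peaks there were 284 peaks, the width difference was 26.5 bp (-1 to 45) and the score difference 14 (-6 to 29). In that setting 54.2% of neighbours were shared, against 43.8% of all midline peaks, 36.6% of peaks had no midline call left out and 74.7% scored below the embryo peak over their neighbour. With every peak set to 500 bp the median gap was 365.5 bp. Between midpoints the median distance was 617 bp and 9.06% were flanked on both sides. With the highest-scoring neighbour in place of the nearest, 69.1% were shared and the median rank was 4197. Shorter lists hold fewer peaks by construction. The highest-scoring midline peak within the limit never ranks lower than the nearest one, which fixes the direction of that move in median rank. A distance between midpoints is never shorter than the gap between edges, so the same limit admits fewer peaks. For the other changes the cause was not tested. Widths could not be compared at a fixed extent, and peak numbers were not read with the shortened midline list or at a fixed extent. No paired analysis was possible because each list was called on its pooled replicates, which also prevents leaving out a replicate. Since depth is unknown, a missing peak may be closed or undetected chromatin.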

Other observations

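There were 3 midline peaks that each adjoined 3 embryo-only peaks, chosen after their values were seen. All 3 were shared and had embryo-only peaks on both sides. Of all 961 midline neighbours, 626 were shared. At 9828539 to 9828931 of 2R (rank 785) the embryo-only peaks had scores of 134, 239 and 82. At 3395123 to 3395902 of 3L (rank 1709) they had scores of 550, 90 and 106, of which the first is among the 10 highest. At 2189620 to 2189873 of X (rank 3711) they had scores of 122, 76 and 84. The 9 gaps ran from 154 to 927 bp.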
